A study of Mus musculus with 4 samples.

Results

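Expression of 46 genes for Polycomb, Trithorax and DNA methylation regulators was described on 4 arrays of mouse bone marrow cells. The genes were chosen by function, and all 46 of 18193 genes on the array had at least 1 probe set with a single gene symbol. Where a gene had several probe sets, the brightest on average (mean log2 intensity) stood for it. They fell into 7 classes: 15 PRC1 genes, 7 PRC2 genes, 3 PR-DUB genes, 7 MLL-type genes, 3 other histone methyltransferases, 4 histone demethylases and 7 genes of DNA methylation.

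All cells began as lineage-negative, Sca-1-positive, c-kit-positive (LSK) bone marrow cells, which include the blood-forming stem cells, and were grown with serum, IL-3, SCF, Flt3 and IL-11. The 4 groups were LSK cells transduced with a β-catenin retrovirus at day 3, LSK cells transduced with an enhanced green fluorescent protein (eGFP) retrovirus at day 3, and β-catenin-transduced cells cultured to day 50 and to day 300 (DKmix). The series asked which genes, transcription factors above all, act in the immortalization of these cells by β-catenin. Each group held 1 array, so there was no replicate error, no test was possible and every difference below is between single arrays. The labels do not give the strain or age of the mice, whether animals were pooled or whether DKmix is a clone. An eGFP culture at day 50 or 300 was not analysed here.

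Polycomb proteins keep developmental genes silent. PRC1 ubiquitinates a core histone and compacts chromatin, PRC2 methylates histone H3 on a lysine linked to silencing, and PR-DUB removes the ubiquitin. Trithorax-type MLL enzymes methylate another lysine of the same histone at active genes, and the DNMT and TET enzymes write and oxidise the methyl mark on cytosine. Several of these genes, among them Bmi1, Kmt2a, Dnmt3a, Tet2 and Asxl1, are known for roles in blood stem cell self-renewal or in leukaemia.

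Values are the deposited linear intensities. An intensity at or below 48.3, the median of all values on the 4 arrays, was set to that floor before a ratio was taken, so where 1 of the pair was floored only a lower bound is given ("at least"). Of the 46 genes, 38 lay above the floor on all 4 arrays and 8 on only some of them. Counts of higher or lower genes take those past 2-fold.

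Promoter windows are shown for the catalytic pair of PRC2 and for the gene with the largest difference, from RefSeq on GRCm38.p6, 5′ to 3′ on the strand of the gene, from 250 bases before to 50 bases after a start. Ezh2 (chr6:47594981-47595280, minus strand) and Ezh1 (chr11:101226414-101226713, minus strand) encode the alternative catalytic subunits of PRC2, and capitals mark matches to the E2F motif TTTNNCGC on either strand. Dnmt3b (chr2:153649199-153649498, plus strand) encodes a de novo DNA methyltransferase, and there capitals mark CpG, the dinucleotide that DNA methyltransferases modify.
Ezh2: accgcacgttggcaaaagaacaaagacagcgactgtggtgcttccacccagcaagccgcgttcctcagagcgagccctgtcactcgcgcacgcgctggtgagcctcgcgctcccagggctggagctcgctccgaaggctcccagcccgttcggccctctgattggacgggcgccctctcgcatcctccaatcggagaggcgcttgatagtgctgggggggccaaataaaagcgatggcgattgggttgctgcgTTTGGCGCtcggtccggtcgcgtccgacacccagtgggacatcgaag
Ezh1: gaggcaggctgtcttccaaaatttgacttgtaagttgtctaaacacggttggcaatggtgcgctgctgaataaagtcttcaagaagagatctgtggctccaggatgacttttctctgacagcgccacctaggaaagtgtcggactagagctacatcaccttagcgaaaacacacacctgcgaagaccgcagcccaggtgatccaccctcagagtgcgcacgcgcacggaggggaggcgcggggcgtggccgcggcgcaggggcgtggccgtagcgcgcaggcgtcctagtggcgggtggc
Dnmt3b: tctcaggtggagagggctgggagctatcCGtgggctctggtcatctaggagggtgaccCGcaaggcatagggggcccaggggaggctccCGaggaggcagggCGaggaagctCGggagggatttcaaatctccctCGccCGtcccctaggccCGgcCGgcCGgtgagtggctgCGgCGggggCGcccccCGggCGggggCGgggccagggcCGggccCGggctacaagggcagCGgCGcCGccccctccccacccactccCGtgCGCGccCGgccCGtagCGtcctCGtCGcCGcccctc
The Ezh2 window held 1 E2F match, beginning at base 254 of the window and so just after the start, and the Ezh1 window held 0. The Dnmt3b window held 30 CpG. Of the members, 38 had a promoter window, 50 windows in all, with a median of 23.5 CpG against a median of 7 over all 32851 windows. The E2F motif was matched in windows of 5 of the 38 genes (Asxl1, Dnmt1, Ezh2, Phf19 and Suz12), or 13.2%, against 5.93% of all 27025 genes. The TCF/LEF motif CTTTGA, which β-catenin's DNA-binding partners recognise, was also matched in 5 (Dnmt1, Kmt2d, Pcgf5, Phc1 and Suz12), 13.2% against 18.2%. The E-box CACGTG was matched in 9, 23.7% against 8.09%. The E2F and E-box motifs contain CpG and the TCF/LEF motif does not. As the member windows were richer in CpG, all genes are not a like background for these shares. The part of CpG content in them was not tested. Both strands were searched for each motif, and the shares are descriptions of these windows.

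The arrays differed in RNA quality and cell type markers. Ctnnb1, which encodes β-catenin, had 3 probe sets, and on the β-catenin day 3 array they read 0.949, 5.93 and 2.26 times the eGFP day 3 value. The 3′ to 5′ signal ratio of Gapdh was 1.18 on β-catenin day 3, 4.14 on eGFP day 3, 4.96 at DKmix day 50 and 1.06 at DKmix day 300. That of actin was 1.32, 1.83, 3.41 and 1.20 in the same order, so that DKmix day 300 and β-catenin day 3 were alike by both, and DKmix day 50 and eGFP day 3 by Gapdh but not by actin. The 10 mast cell markers summed to 173785 and 77539.5 at DKmix day 50 and 300, against 3878.8 and 793.0 on the β-catenin and eGFP day 3 arrays. The 10 neutrophil markers summed to 715.9 and 209.3 at DKmix day 50 and 300, against 13190.1 on β-catenin day 3 and 103009 on eGFP day 3, and the 10 macrophage and dendritic cell markers to 656.4 and 5987.5 at DKmix day 50 and 300, against 24868.2 and 19678.9 on the β-catenin and eGFP day 3 arrays. Of the sum at day 300, Cd68 alone gave 5406.9. Of the LSK markers, Kit read only 82.9 and 55.8 on the β-catenin and eGFP day 3 arrays. At DKmix day 50 and 300 Kit read 3459.5 and 1262.7, and Flt3 was below the floor on all 4 arrays. The 11 LSK and progenitor markers together summed to 8402.2 on β-catenin day 3 and 3828.5 on eGFP day 3. Their sums at DKmix day 50 and 300 were 15922.2 and 11604.3. Against β-catenin day 3, 3 of 10 measured were higher and 2 lower at day 50 (background 16.1% and 15.7%). At day 300, 4 of 10 were higher and 3 lower (background 14.0% and 14.4%). Gata2 (4647.8 and 4278.6) and Kit, which is also on the mast cell list, were higher on both DKmix arrays. Sox4 was lower on both (65.4 and 48.7, against 899.9 on β-catenin day 3). Between β-catenin and eGFP at day 3 the median log2 ratio of the progenitor markers was 1.22, against -0.015 for all genes. Past 2-fold, 6 of 10 favoured β-catenin and 0 favoured eGFP. The part of these shifts in the results below was not tested, and in bulk RNA fewer cells of a type and less RNA per cell cannot be told apart.

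**Figure D1:**
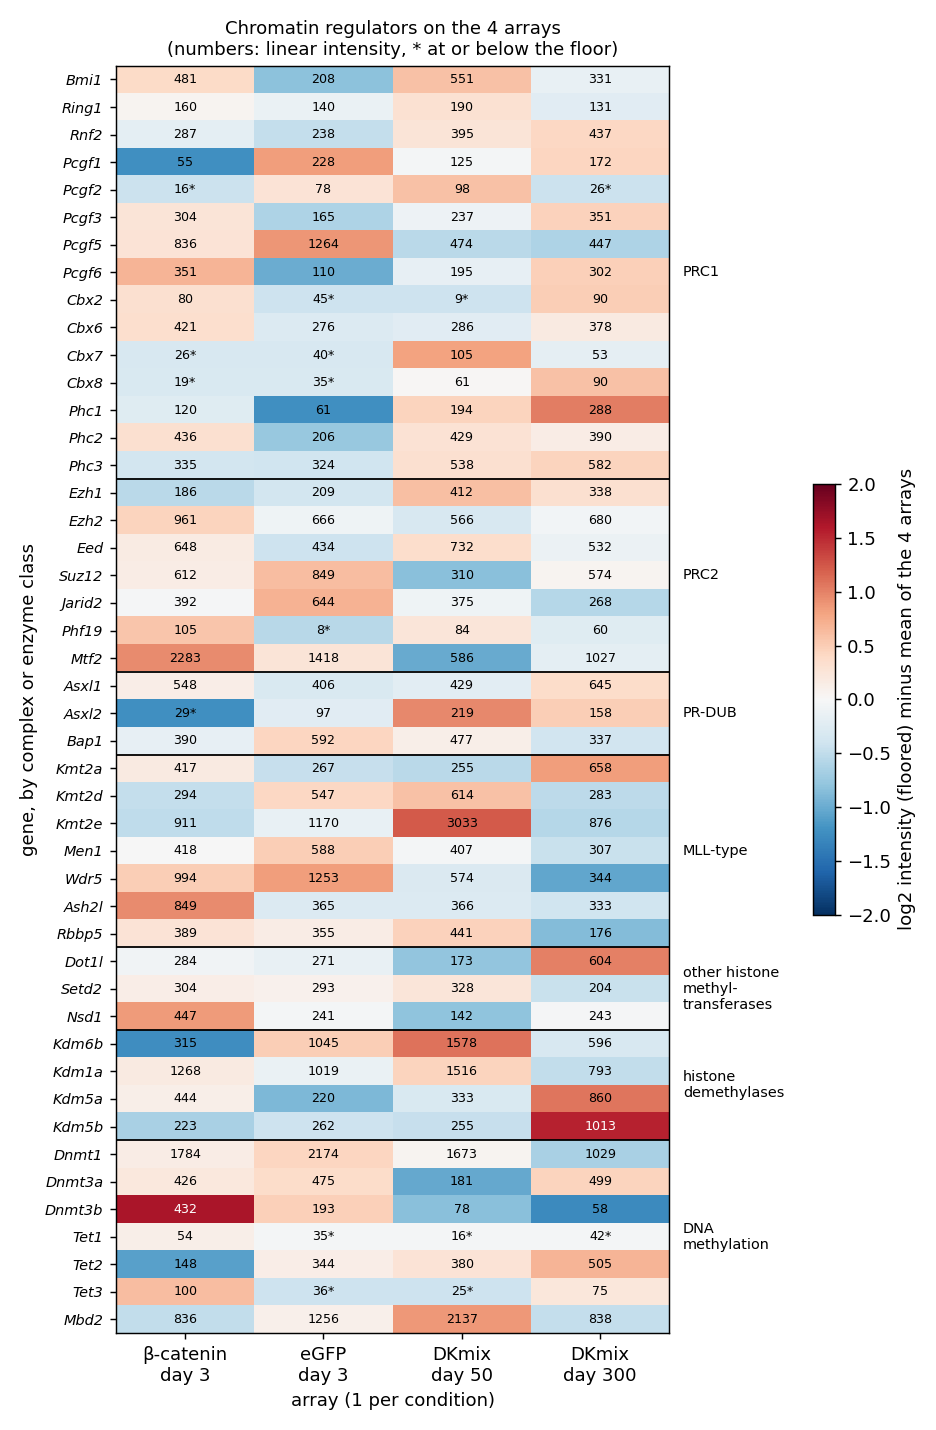
Intensities of the 46 chromatin regulators (rows, by class) on the 4 arrays (columns, 1 array each). Numbers are linear intensities, with * at or below the floor of 48.3, and colour is the floored log2 intensity minus the gene's mean over the 4 arrays. Dnmt3b is highest on β-catenin day 3 (432.4) and lowest at DKmix day 300 (57.9), while Ezh2 stays between 566.0 and 960.7.

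Few of these regulators separated the long-term cultures from the day 3 cells. On both DKmix arrays 8 of the 46 genes were above both day 3 arrays, and 8 were below both, against 15.5% and 16.8% of 15292 measured genes. The 17.4% of members on either side was thus near the background. At a gap of at least 2-fold, 0 members were above (background 2.78%) and 1, Dnmt3b, was below (background 2.68%). When probe sets were averaged per gene the 1 below was Wdr5, and on a scale set by the hybridisation controls (spiked-in transcripts) 6 were below. Of the 8 that were above by their brightest probe sets, 5 were PRC1 genes (Rnf2, Cbx7, Cbx8, Phc1 and Phc3), joined by Ezh1, Asxl2 and Tet2. Some other probe sets of Rnf2, Phc3, Ezh1, Asxl2 and Tet2 did not show this order, and the second of Cbx8 was below the floor throughout. The 8 below were Pcgf5, the PRC2 genes Suz12, Jarid2 and Mtf2, the MLL-type genes Men1 and Wdr5, and Dnmt1 and Dnmt3b. Some other probe sets of Suz12, Jarid2, Mtf2 and Men1 did not show that order. Some gaps were very small: 1.03-fold for Men1, 1.04-fold for Jarid2, 1.06-fold for Suz12, 1.07-fold for Dnmt1 and 1.10-fold for Cbx7 and Tet2. The others ran from 1.26-fold (Cbx8) to 2.47-fold (Dnmt3b). Those of Cbx7 and Cbx8 are lower bounds, with both day 3 arrays below the floor. Among the 38 members above the floor everywhere, the median ratio of the highest to the lowest array was 2.55-fold, against 2.48-fold for 7574 such genes.

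In PRC1, the ring-finger and Polycomb group RING finger (PCGF) subunits set the catalytic core. Rnf2, the main ubiquitin ligase, read 287.0 on β-catenin day 3, 237.7 on eGFP day 3, 395.1 at DKmix day 50 and 437.0 at DKmix day 300, and its partner ligase Ring1 read 159.9, 140.1, 190.4 and 130.6 in that order. Both stayed within 2-fold over the 4 arrays by these probe sets, but another Rnf2 probe set was 3.29-fold higher on β-catenin day 3 than on eGFP day 3 (202.2 against 61.5) and 2.15-fold higher at DKmix day 300 than day 50. Bmi1, a PCGF subunit of canonical PRC1 that stem cells need for self-renewal, read 481.0 on β-catenin day 3 and 208.0 on eGFP day 3. It read 551.1 and 330.9 at DKmix day 50 and 300. The eGFP array was the low one: Bmi1 was 2.31-fold higher with β-catenin and 2.65-fold higher at DKmix day 50 than with eGFP, and it differed by 1.15-fold and 1.45-fold, up at day 50 and down at day 300, from β-catenin day 3. Its second probe set read 55.3 with β-catenin and 25.1, below the floor, with eGFP at day 3, then 148.0 and 84.6 on the DKmix arrays, at least 3.06-fold above eGFP at day 50 and 2.68-fold above β-catenin day 3.

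The other PCGF subunits, which include those of variant PRC1, differed among themselves. Pcgf6 read 350.9 with β-catenin at day 3, 3.20-fold above its eGFP value of 109.7, and gave 195.1 and 302.3 on the DKmix arrays. One of its dimmer probe sets was high only at DKmix day 50 (134.2). Pcgf1 went the other way at day 3, 4.16-fold lower with β-catenin (54.8 against 227.7), and the DKmix arrays at 124.9 and 172.0 were 2.28-fold and 3.14-fold above β-catenin day 3 yet below eGFP. The β-catenin array was thus the outlying one for Pcgf1, which has 1 probe set. Pcgf5 was lower on both DKmix arrays, at 474.3 and 447.0, against 836.0 on β-catenin day 3 and 1264.4 on eGFP day 3. It was 1.76-fold and 1.87-fold lower than β-catenin day 3, short of 2-fold, and 2.67-fold lower at day 50 than eGFP day 3, with both other probe sets lower in each of these pairs. Pcgf3 lay between 165.0 on eGFP day 3 and 350.9 at DKmix day 300, and its other probe sets differed in pattern. The brighter Pcgf2 probe set was above the floor on eGFP day 3 (78.1) and at DKmix day 50 (97.6), and the other at DKmix day 300 (60.7).

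The chromobox (CBX) and Polyhomeotic (PHC) subunits read the histone mark and polymerise the complex. Cbx7 was below the floor on both day 3 arrays (26.3 with β-catenin, 40.2 with eGFP) and read 104.6 at DKmix day 50 and 53.3 at day 300, at least 2.17-fold higher at day 50 than on either day 3 array. Cbx8 was likewise above the floor only on the DKmix arrays (60.7 and 89.9), at least 1.26-fold and 1.86-fold above β-catenin day 3. Its second probe set was below the floor on all 4 arrays. Cbx2 read 80.4 on β-catenin day 3 and 90.1 at DKmix day 300 by one probe set, below the floor on the other arrays, and by the second it was above the floor only on those others, 55.7 on eGFP day 3 and 93.7 at DKmix day 50. The brighter Cbx6 probe set stayed within 2-fold, between 275.5 and 421.0, and the second was 2.31-fold higher at DKmix day 300 than day 50. Phc1 read 193.6 and 287.6 on the DKmix arrays, against 119.5 on β-catenin day 3 and 60.8 on eGFP day 3. It was 2.41-fold higher at day 300 than β-catenin day 3 and 3.18-fold higher at day 50 than eGFP day 3. Phc3 was above both day 3 values (334.7 with β-catenin and 324.4 with eGFP) by at least 1.61-fold, at 537.5 and 582.5, but its dimmer probe set was lower than β-catenin day 3 on both DKmix arrays, by at least 2.29-fold at day 300. Phc2 was lowest on eGFP day 3, at 206.1 against 390.2 to 436.1 elsewhere, and by its second probe set at DKmix day 300 (172.3), 2.44-fold below β-catenin day 3.

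As a class, PRC1 had 3 of 15 measured genes at least 2-fold higher and 0 lower at DKmix day 50 over β-catenin day 3 (background 16.1% higher and 15.7% lower), with a median log2 ratio of 0.25 against 0.067 for all genes. At day 300, 2 of 14 were higher and 0 lower (background 14.0% and 14.4%), with a median of 0.15 against -0.076. Between β-catenin and eGFP at day 3 its median was 0.61 (13 measured, 3 higher, 1 lower, background 10.2% and 9.42%), against -0.015 for all genes. On the hybridisation control scale, which put the median of all genes at -0.73 for day 50, -0.90 for day 300 and 0.34 for day 3, the PRC1 medians were -0.72, -0.88 and 1.01. With the floor at percentile 75 the day 300 median was -0.16, with averaged probe sets it was 0.037, and with the floor at percentile 25 the day 3 median was 0.27. Of 11 PRC1 partners outside the 46 genes, 2 were higher and 0 lower at DKmix day 50 over β-catenin day 3. Of these Auts2, which joins variant PRC1, had a log2 ratio of at least 2.26 at day 50. Kdm2b, the CpG-binding subunit that recruits variant PRC1, was lowest at DKmix day 50 (218.0), against 396.3 on β-catenin day 3 and 1083.0 on eGFP day 3.

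In PRC2, the catalytic subunits Ezh2 and Ezh1 lay on opposite sides of β-catenin day 3 on the DKmix arrays by their brightest probe sets. Ezh2, the form of dividing cells, read 566.0 and 679.9 at DKmix day 50 and 300, against 960.7 on β-catenin day 3 and 666.0 on eGFP day 3, and stayed within 2-fold throughout. Ezh1, the form of resting cells, read 411.5 and 337.9 on the DKmix arrays, against 186.0 and 209.2 on the same day 3 arrays. It was 2.21-fold higher at day 50 and 1.82-fold higher at day 300 than β-catenin day 3, and 1.97-fold higher at day 50 than eGFP day 3. Its second measured probe set did not follow: at 90.9 and 140.3 on the DKmix arrays it was 1.62-fold and 1.05-fold below its β-catenin day 3 value of 147.2, and above its eGFP value of 34.2. Of 17 dividing-cell markers, 10 were at least 2-fold lower and 0 higher at DKmix day 50 than on β-catenin day 3 (background 15.7% and 16.1%), and 6 were lower and 1, Ccnb2, higher at day 300 (background 14.4% and 14.0%). They had sums of 20450.3 and 30434.8 at DKmix day 50 and 300, against 46980.2 on β-catenin day 3 and 48524.3 on eGFP day 3, and their part in these values was not tested.

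Mtf2, a Polycomb-like subunit that brings PRC2 to CpG islands, had the largest difference of the class. It read 586.0 at DKmix day 50 and 1026.6 at day 300, against 2283.0 on β-catenin day 3 and 1418.5 on eGFP day 3. That made it 3.90-fold and 2.22-fold lower than β-catenin day 3 and 2.42-fold lower at day 50 than eGFP day 3. At day 50 against β-catenin day 3, 3 of its 4 other measured probe sets were also at least 2-fold lower, by 5.06-fold, 2.20-fold and 2.41-fold. At day 300 against β-catenin day 3, 1 of the 4 was. At day 50 against eGFP day 3, 1 was at least 2-fold lower and 1 was 2.01-fold higher (102.0 against 50.7). Suz12, which PRC2 needs for stability, read 310.2 and 574.3 on the DKmix arrays, against 611.6 on β-catenin day 3 and 849.0 on eGFP day 3. By this brightest probe set only the day 50 value stood off, 2.74-fold below eGFP day 3 and 1.97-fold below β-catenin day 3. All 4 other measured probe sets were lower than eGFP at day 50, but not all set day 50 apart. Of these, 1 read 171.4 on β-catenin day 3 and 159.0 at DKmix day 50, against 342.0 on eGFP day 3 and 307.3 at DKmix day 300. Eed, the subunit that binds the methylated lysine, stayed within 2-fold (434.0 to 731.9).

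The probe sets of the accessory PRC2 subunits Jarid2 and Phf19 disagreed. Jarid2 read 374.9 and 268.5 on the DKmix arrays, against 391.6 on β-catenin day 3 and 644.3 on eGFP day 3, but its second probe set was at least 4.28-fold and 4.51-fold above β-catenin day 3 (206.6 and 217.7 against 44.5). Yet another probe set was at least 4.68-fold lower at day 50 (14.7 against 226.2). Phf19 read 104.8 with β-catenin and 7.5, below the floor, with eGFP, a difference of at least 2.17-fold, and 83.7 and 60.1 on the DKmix arrays. The second Phf19 probe set went the other way, below the floor with β-catenin and on both DKmix arrays, against 78.7 with eGFP. Of the PRC2 and PR-DUB partners, Rbbp7, a histone chaperone of the complex, had a log2 ratio of -1.77 at DKmix day 50 over β-catenin day 3 and -0.78 at day 300, while Phf1, another Polycomb-like protein, read 117.7 and 197.2 on the DKmix arrays, against 31.9 on β-catenin day 3 and 5.9 on eGFP day 3, both below the floor. In that list 4 of 11 were higher and 1 lower at day 50 (background 16.1% and 15.7%). At day 300, 2 of 10 were higher and 2 lower (background 14.0% and 14.4%).

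Of the PR-DUB genes, the deubiquitinase Bap1 (337.4 to 592.2) and its cofactor Asxl1 (405.5 to 645.4) stayed within 2-fold on all arrays by their brightest probe sets. A second Asxl1 probe set was 2.76-fold lower at DKmix day 50 than eGFP day 3, and a second Bap1 probe set was 2.05-fold higher at DKmix day 300 than day 50. Asxl2, the paralogue of Asxl1, read 219.4 and 158.4 on the DKmix arrays, against 29.0 (below the floor) on β-catenin day 3 and 97.0 on eGFP day 3. It was at least 4.54-fold and 3.28-fold higher than β-catenin day 3, and 2.26-fold higher at day 50 than eGFP day 3. The β-catenin array was again the lowest, at least 2.01-fold below eGFP. For each of the DKmix comparisons with β-catenin day 3, 1 other Asxl2 probe set was past 2-fold the same way, but not the same one. The first read 132.7 at day 50 and 29.0 at day 300, and the second 33.0 and 121.9. Against eGFP day 3, 2 of 4 other probe sets were higher at day 50, 1 of them past 2-fold. The probe set at 33.0 was at least 2.04-fold lower.

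**Figure D2:**
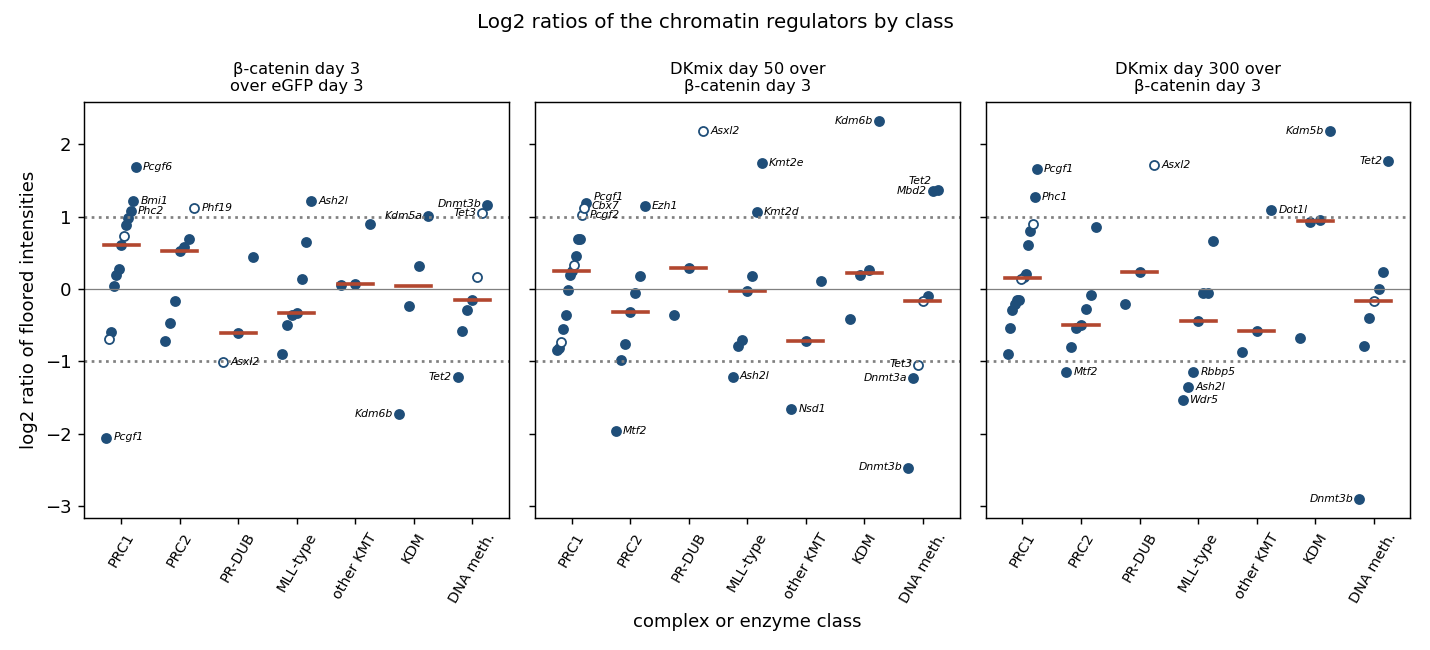
Log2 ratios of the members by class (x axis) in 3 comparisons between single arrays, where KMT and KDM stand for histone methyltransferases and demethylases. Each point is a gene, open where 1 array was at the floor (a lower bound), red bars are class medians, dotted lines mark 2-fold and genes past it are named. The PRC1 median lies above 0 with β-catenin at day 3 (0.61), and Wdr5, Ash2l and Rbbp5 lie below -1 at DKmix day 300.

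Among the MLL-type genes, Wdr5, Ash2l and Rbbp5 are core subunits shared by the MLL and SETD1 complexes, and each was at least 2-fold lower at DKmix day 300 than β-catenin day 3. Wdr5, the scaffold, read 574.4 and 343.7 at DKmix day 50 and 300, against 994.1 on β-catenin day 3 and 1252.6 on eGFP day 3. It was 2.89-fold lower at day 300 than β-catenin day 3, and its second probe set was 2.94-fold lower. At day 50 it was 1.73-fold lower than β-catenin day 3 by the brightest probe set and 3.99-fold by the second, and 2.18-fold lower than eGFP day 3. Ash2l, which activates the enzyme, read 366.4 and 332.7 on the DKmix arrays, against 848.7 with β-catenin and 364.9 with eGFP, so that only the β-catenin day 3 array was high. A dim second Ash2l probe set went the other way at day 50, at 101.8 against 9.9 with β-catenin. Rbbp5, its partner, was low only at day 300 (176.0), 2.21-fold below β-catenin day 3 (388.8) and 2.50-fold below DKmix day 50 (440.8). The fourth core subunit, Dpy30, which was not a member but on a list of partners, had log2 ratios of -1.29 at day 300 and -0.97 at day 50 over β-catenin day 3. This grouping was made after the values were seen.

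The MLL enzymes differed in pattern from these core subunits and from each other. Kmt2a, the MLL1-type enzyme that maintains Hox expression, read 254.6 at DKmix day 50 and 658.0 at day 300, against 416.8 on β-catenin day 3 and 267.3 on eGFP day 3, and was 2.58-fold higher at day 300 than at day 50, with its second probe set 2.30-fold higher. Kmt2d, the enhancer methyltransferase, read 613.5 and 283.2 on the DKmix arrays, against 293.6 with β-catenin and 547.1 with eGFP. A dim second Kmt2d probe set was highest on eGFP day 3 (75.3) and below the floor on both DKmix arrays (17.8 and 8.9). Kmt2e, a MLL family protein needed in blood stem cells, stood out at DKmix day 50 with 3032.6, against 910.8 on β-catenin day 3 and 1169.7 on eGFP day 3, and read 876.0 at day 300. It was 3.33-fold higher at day 50 than β-catenin day 3, 4 of its 5 other measured probe sets were also higher and 2 of them past 2-fold. The remaining one was 2.84-fold lower at day 50 than eGFP day 3 (88.3 against 251.0). Men1, the MENIN adaptor of the MLL1-type complexes, stayed within 2-fold (307.1 to 588.0), but its second probe set was 6.24-fold lower at DKmix day 50 than β-catenin day 3 (58.7 against 366.4).

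Known Polycomb and MLL target genes, 14 in a separate list, moved in both directions. Hoxa9, kept on by Kmt2a and Menin, read 71.5 and 3.9 on the DKmix arrays, against 266.1 on β-catenin day 3 and 23.8 on eGFP day 3. Meis1, its cofactor, read 318.1 and 334.2, against 194.7 and 44.1, and so did not follow Hoxa9. Cdkn2a, the cell cycle inhibitor locus repressed by Bmi1, was above the floor only at DKmix day 50 (287.7) and read 2.0 at day 300. Bmi1 was also highest at DKmix day 50 (551.1), by 1.15-fold over β-catenin day 3, and a link between these genes was not tested. Cdkn2b, the neighbour of Cdkn2a, read 92.1 and 164.2 on the DKmix arrays and was below the floor on both day 3 arrays. Over the list, 3 of 11 measured were higher and 2 lower at DKmix day 50 over β-catenin day 3 (background 16.1% and 15.7%). At day 300, 2 of 10 were higher and 3 lower (background 14.0% and 14.4%).

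Several of the other histone methyltransferases and the demethylases stood apart on 1 array. Dot1l, which methylates histone H3 within transcribed genes, read 173.0 at DKmix day 50 and 604.3 at day 300, against 283.9 on β-catenin day 3 and 271.3 on eGFP day 3. It was 2.13-fold higher at day 300 than β-catenin day 3, but its second probe set was level there, at 328.7 against 331.5. Nsd1, which methylates histone H3 in active chromatin, was 3.15-fold lower at day 50 than β-catenin day 3 (141.8 against 446.6), with 243.1 at day 300 and 240.7 on eGFP day 3. Its 2 other measured probe sets did not follow: 1 was level (101.9 against 105.1) and 1 was 1.66-fold higher (102.5 against 61.8). Setd2, the enzyme that marks elongating genes, stayed within 2-fold (203.9 to 327.7).

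Kdm5b, a demethylase that removes the MLL mark, read 255.0 at DKmix day 50 and 1013.1 at day 300, against 222.8 on β-catenin day 3 and 261.6 on eGFP day 3. The day 300 array alone was high, 4.55-fold above β-catenin day 3 and 3.97-fold above DKmix day 50. A second Kdm5b probe set was past 2-fold over β-catenin day 3 on both DKmix arrays, by 2.55-fold and 3.05-fold, and a dim one went the other way on both. Its paralogue Kdm5a was also highest at day 300, at 860.2, against 332.8 at DKmix day 50, 443.6 on β-catenin day 3 and 220.1 on eGFP day 3, but none of its 4 other measured probe sets was highest there. Kdm6b, which removes the Polycomb mark and is induced in activated myeloid cells, read 1578.3 and 596.4 on the DKmix arrays, against 315.3 with β-catenin and 1044.8 with eGFP. It was 3.31-fold lower on β-catenin day 3 than on eGFP day 3 and 5.01-fold higher at DKmix day 50 than β-catenin day 3, by a probe set whose x suffix marks probes that can match other transcripts. Both other probe sets had the same sign in these comparisons, and the opposite sign between the DKmix arrays. Kdm1a, the LSD-type demethylase, stayed within 2-fold (793.3 to 1515.8).

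Of the genes of DNA methylation, Dnmt3b had the largest ratio among the 46 genes. It read 78.1 at DKmix day 50 and 57.9 at day 300, against 432.4 on β-catenin day 3 and 193.2 on eGFP day 3. The groups did not overlap: the higher DKmix value was 2.47-fold below the lower day 3 value, and Dnmt3b was 5.54-fold and 7.47-fold lower than β-catenin day 3. Its second probe set read 158.8 at day 50 and 19.0, below the floor, at day 300, against 250.5 and 175.9 on the β-catenin and eGFP day 3 arrays. By it Dnmt3b was 1.58-fold lower at day 50 and at least 5.19-fold lower at day 300 than β-catenin day 3, and the day 50 value was only 1.11-fold below eGFP.

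Dnmt3a, the other de novo enzyme, was lowest at DKmix day 50, at 180.6, and read 499.2 at day 300, against 426.1 on β-catenin day 3 and 474.6 on eGFP day 3. At day 50 it was 2.36-fold below β-catenin day 3 and 2.63-fold below eGFP, and all 4 other probe sets were lower than eGFP. At day 300 the probe sets disagreed, from 1.80-fold lower to 1.81-fold higher than β-catenin day 3. Dnmt1, the maintenance methyltransferase, read 1673.3 and 1029.1 on the DKmix arrays, against 1783.7 and 2174.4 with β-catenin and eGFP, by a probe set with an x suffix, and passed 2-fold in none of the 5 comparisons. Another Dnmt1 probe set gave 316.9 and 642.3 on the DKmix arrays, against 946.9 and 1202.9 with β-catenin and eGFP. It was 2.99-fold and 1.47-fold lower than β-catenin day 3, and 3.80-fold lower at day 50 than eGFP day 3. The dimmest Dnmt1 probe set, also with an x suffix, read 87.7 and 92 on the DKmix arrays, against 144.8 and 382.6. It was 4.36-fold lower at day 50 than eGFP day 3, and 2.64-fold lower with β-catenin than eGFP at day 3. Uhrf1, the partner that brings Dnmt1 to replicated DNA, had log2 ratios of -1.25 and -1.35 at DKmix day 50 and 300 over β-catenin day 3. In its list of DNA methylation partners 5 of 9 measured were lower at day 50 with 1 higher, and 6 of 9 were lower at day 300 with 0 higher, with medians of -1.21 and -1.35, against 15.7% and 14.4% of all genes lower and all-gene medians of 0.067 and -0.076. Gadd45b, a stress-response protein linked to DNA demethylation, had the lowest value at day 300 (-2.56), and Idh2, an enzyme whose product TET enzymes need, at day 50 (-2.62), while Uhrf1 was named after its values were seen.

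Tet2, an enzyme that oxidises methylcytosine and is often mutated in myeloid disease, read 379.6 and 504.7 on the DKmix arrays, against 147.8 on β-catenin day 3 and 344.2 on eGFP day 3. It was 2.57-fold and 3.41-fold above β-catenin day 3 but only 1.10-fold above eGFP at day 50. Its second probe set read 190.9 and 155.5, against 165.7 and 69.5, so the low value fell on the β-catenin array by one probe set and on the eGFP array by the other. Tet1 was above the floor on β-catenin day 3 (54.1), where all 4 of its probe sets were highest, and 1 other of them just passed it at DKmix day 300 (48.7). Tet3 was above the floor on β-catenin day 3 (99.7) and at DKmix day 300 (75.3), the arrays with the lower Gapdh 3′ to 5′ ratios. Mbd2, a reader of methylated DNA, was highest at DKmix day 50 (2136.9), with 837.7 at day 300, against 835.9 with β-catenin and 1255.8 with eGFP. Its second probe set was high on both DKmix arrays, 2.24-fold and 2.14-fold above β-catenin day 3.

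**Figure D3:**
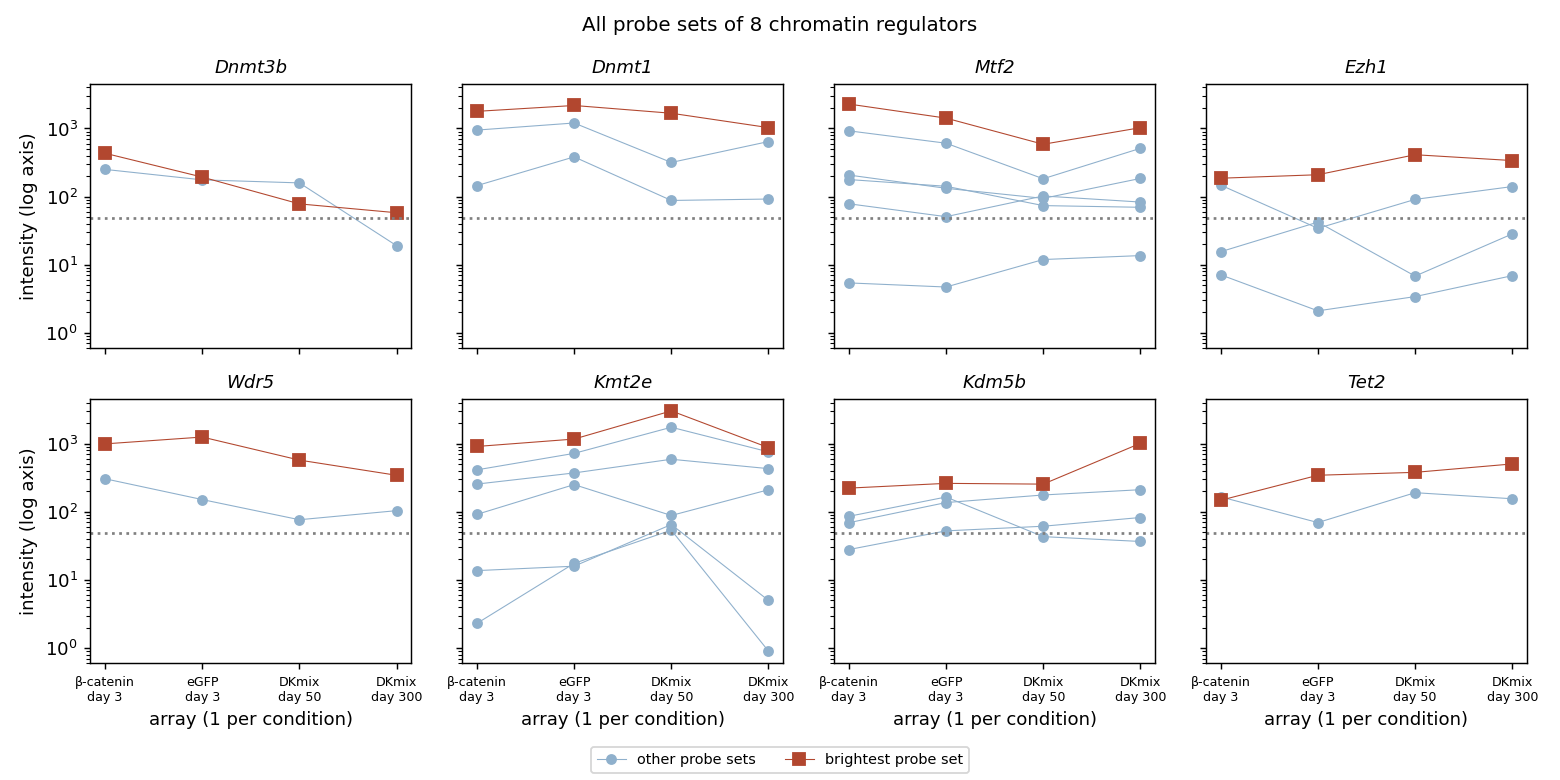
Intensity (log axis) on the 4 arrays of every probe set of 8 members. Red squares are the brightest probe set, blue circles the others, thin lines join the values of 1 probe set and are not a time course, and the dotted line is the floor of 48.3. The probe sets of Wdr5 and the brighter ones of Mtf2 are lower at DKmix day 50 than on β-catenin day 3, while those of Tet2 differ at day 3, where one is lower and the other higher on β-catenin than on eGFP.

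Across the 46 genes, the counts were close to those of all genes in most comparisons. With β-catenin over eGFP at day 3, 8 of 44 measured members were at least 2-fold higher (18.2%, background 10.2%) and 4 lower (9.09%, background 9.42%), with a median log2 ratio of 0.15 against -0.015 for all genes. The higher ones were Bmi1, Pcgf6, Phc2, Phf19, Ash2l, Kdm5a, Dnmt3b and Tet3, and the lower ones Pcgf1, Asxl2, Kdm6b and Tet2. Only Kdm6b among these 12 had another probe set past 2-fold the same way. When a gene's probe sets were averaged 1 member was higher and 2 lower (all genes 6.75% and 5.58%). On the hybridisation control scale 15 were higher and 3 lower, against 21.4% and 6.88% of all genes.

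At DKmix day 50 over β-catenin day 3, 10 of 46 members were higher (21.7%, background 16.1%) and 6 lower (background 15.7%), with a median of -0.029 against 0.067 for all genes. The higher ones were Pcgf1, Pcgf2, Cbx7, Ezh1, Asxl2, Kmt2d, Kmt2e, Kdm6b, Tet2 and Mbd2. The lower ones were Mtf2, Ash2l, Nsd1, Dnmt3a, Dnmt3b and Tet3. Another probe set was past 2-fold the same way for 5 of the 16, namely Mtf2, Asxl2, Kmt2e, Dnmt3a and Mbd2. On the hybridisation control scale 2 were higher and 21 lower (all genes 4.92% and 39.3%), and when probe sets were averaged 3 were higher (all genes 9.68%). DKmix day 50 over eGFP day 3, with like Gapdh but unlike actin 3′ to 5′ ratios, gave 6 of 43 higher (background 15.6%) and 6 lower (background 15.0%): Bmi1, Cbx7, Phc1, Phc2, Asxl2 and Kmt2e were higher, and Pcgf5, Suz12, Mtf2, Wdr5, Dnmt3a and Dnmt3b lower. On the hybridisation control scale that pair gave 1 higher and 11 lower (all genes 7.56% and 27.4%). The comparisons share arrays and are not independent.

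**Figure D4:**
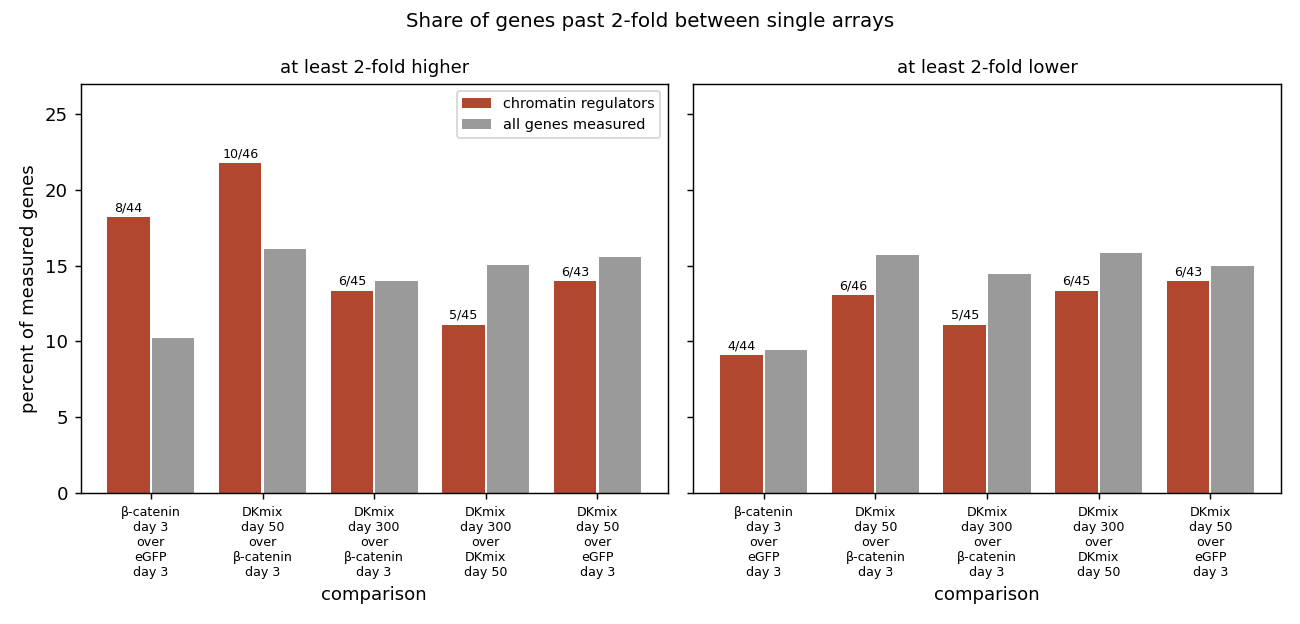
Percent of measured genes at least 2-fold higher (left) or lower (right) in each of 5 comparisons between single arrays, for the chromatin regulators (red, with counts over genes measured) and all genes (grey). The regulators lie above all genes among those higher with β-catenin at day 3 (8 of 44) and higher at DKmix day 50 over β-catenin day 3 (10 of 46), and below or near them elsewhere.

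At DKmix day 300 over β-catenin day 3, with like Gapdh and actin 3′ to 5′ ratios, 6 of 45 members were higher (13.3%, background 14.0%) and 5 lower (11.1%, background 14.4%), with a median of -0.16 against -0.076. Pcgf1, Phc1, Asxl2, Dot1l, Kdm5b and Tet2 were higher, and Mtf2, Wdr5, Ash2l, Rbbp5 and Dnmt3b lower. For 5 of these 11, Mtf2, Asxl2, Wdr5, Kdm5b and Dnmt3b, another probe set was past 2-fold the same way. On the hybridisation control scale 2 were higher and 26 lower, as were 4.17% and 45.1% of all genes. When probe sets were averaged 3 were lower (all genes 9.41%).

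Between the cultures, DKmix day 300 over DKmix day 50, 5 of 45 members were higher (background 15.1%) and 6 lower (background 15.9%). Kmt2a, Dot1l, Kdm5a, Kdm5b and Dnmt3a were higher at day 300, and Pcgf2, Kmt2d, Kmt2e, Rbbp5, Kdm6b and Mbd2 lower. Another probe set was past 2-fold the same way for Kmt2a, Kmt2e and Dnmt3a, but 1 Kmt2e probe set was 2.39-fold higher at day 300 (210.9 against 88.3). By the brightest probe sets none of the 7 PRC2 genes passed 2-fold here (background 15.1% higher, 15.9% lower), and 1 of 15 PRC1 genes did. Other probe sets did for Jarid2 (at least 4.23-fold higher at day 300), Mtf2 (2.80-fold), Rnf2 (2.15-fold) and Cbx6 (2.31-fold). Others were lower at day 300, for Phc2 (3.02-fold) and Pcgf6 (at least 2.78-fold). These arrays differed in Gapdh 3′ to 5′ ratio (1.06 at day 300, 4.96 at day 50), whose part in the differences was not tested. When probe sets were averaged 2 members were higher and 2 lower (all genes 10.1% and 8.35%).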

How the data were processed

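RNA from 4 samples was hybridised to 1 Affymetrix array each, and the deposited values are linear intensities, 1 per probe set. The submitters' processing notes name MAS5, and its version and any detection calls are not given in the sources used here. A mean that left out the outer 2% of values at each end came to 150.0 on every array, and no further scaling was applied. Of 45101 probe sets, 34958 had 1 gene symbol in the platform annotation, 932 several and 9211 none, and 64 were controls, left out of ratios. All 46 member symbols matched RefSeq by Entrez identifier, and their 127 probe sets gave 39 members more than 1. With 1 array per group no test was run, and the number of arrays limits the precision. The only error measure was the disagreement of 2 probe sets of a gene, an SD of 0.64 to 0.91 (log2). Python 3.11.15, pandas 2.3.3 and numpy 2.4.6 were used, and ratios were tested on simulated data. Partner and marker lists gave context: besides those in the text, COMPASS partners and readers had 2 of 16 higher and 3 lower at DKmix day 50 over β-catenin day 3 and 1 higher and 5 lower at day 300, other histone lysine enzymes 3 of 13 and 3, then 4 of 13 and 0, the 11 progenitor markers 3 of 10 and 2, then 4 of 10 and 3, lymphocyte markers 0 of 4 and 1, then 1 of 2 and 1, and erythroid markers 0 of 2 and 0, then 1 of 2 and 0. Over all genes measured, 16.1% were higher and 15.7% lower at DKmix day 50 over β-catenin day 3, and 14.0% and 14.4% at day 300. All members could be named, and of a partner list up to 4 genes past 2-fold per comparison, those with the largest log2 ratios. The members, lists and comparisons were chosen with earlier results of these data known.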

Additional observations from a re-analysis of the deposited data

How the results depend on the processing

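Quantile normalization left all counts within 1.5 times of those reported and moved no gene's log2 ratio by more than the probe set SD. On the hybridisation control scale, members higher and lower were 15 and 3 for β-catenin over eGFP at day 3, 2 and 21 for DKmix day 50 over β-catenin day 3, 2 and 26 for DKmix day 300 over β-catenin day 3, 1 and 11 for DKmix day 50 over eGFP day 3, and 5 and 6 between the DKmix arrays. On that scale 6 members (Pcgf5, Suz12, Jarid2, Mtf2, Wdr5 and Dnmt3b) were at least 2-fold lower on both DKmix arrays than on both day 3 arrays. Between the DKmix arrays that scale put 13.3% of all genes higher and 15.7% lower, and its shares for the other pairs are given above. With the floor at percentile 25, 8 of 46 members were higher at DKmix day 300 over day 50, against 21.3% of all genes. With a floor of 134.6 (percentile 75), which leaves fewer genes measured, 2 of 37 members were lower with β-catenin than eGFP at day 3 (all genes 7.08%). At DKmix day 50, 6 of 38 were then higher than β-catenin day 3 (all genes 14.0%) and 3 of 39 than eGFP day 3 (all genes 13.2%). With that floor 0 were lower on both DKmix arrays. With probe sets averaged per gene, 1 of 44 members was higher and 2 lower with β-catenin at day 3 (all genes 6.75% and 5.58%). By that mean 3 of 46 were higher at DKmix day 50 over β-catenin day 3 (all genes 9.68%) and 2 of 44 over eGFP day 3 (all genes 9.78%). At DKmix day 300, 3 of 46 were lower than β-catenin day 3 (all genes 9.41%). Of 46, 2 were higher and 2 lower at DKmix day 300 over day 50 (all genes 10.1% and 8.35%). The 1 gene lower on both DKmix arrays was Wdr5 in place of Dnmt3b. Tet2 changed sign with that mean at day 3, to a log2 ratio of 0.0169. Single-gene log2 ratios moved by more than the probe set SD in 80 of 220 cases on the hybridisation control scale and in 45 of 223, besides Tet2, with averaged probe sets. The cause of these moves was not tested. No replicate could be left out, and no paired analysis was possible because each group held 1 array.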
